A study of Saccharomyces cerevisiae with 23 samples.

Results

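The high-affinity iron uptake genes of budding yeast described here are FIT1 (YDR534C), FIT2 (YOR382W), FIT3 (YOR383C), ARN1 (YHL040C), ARN2 (YHL047C), SIT1 (YEL065W), ENB1 (YOL158C), FET3 (YMR058W) and FTR1 (YER145C). They were chosen by systematic name, and each was read by 1 probe, so they make up 9 of the 6256 yeast probes on the array. Probe sequences were not used here, so cross-hybridization between the related transporter genes was not tested.

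Yeast takes up ferric iron by separate routes at the cell surface. In the siderophore route, the mannoproteins Fit1, Fit2 and Fit3 hold iron-siderophore chelates in the cell wall, and the transporters Arn1, Arn2, Sit1 and Enb1 carry the chelates into the cell. In the reductive route, surface reductases convert the iron to the ferrous form, the copper-dependent oxidase Fet3 re-oxidizes it, and the permease Ftr1 passes it through the membrane. The iron-sensing activators Aft1 and Aft2 are known to turn these genes on in iron-poor cells. Tup1 and Cyc8 form a general corepressor, which sequence-specific proteins bring to the promoters of many gene groups, stress genes among them.

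The study asked how transcript levels respond to hyperosmotic stress when Tup1 and Cyc8 cannot be modified by the small protein SUMO. Wild type, a strain with TUP1(K270R), a second with CYC8(K735R,K736R,K738R,K748R) and a strain with both sets of lysine-to-arginine changes were sampled at 0, 30 and 60 min in yeast complete medium, with 1.2 M sorbitol at 30 and 60 min. They are called wild type, Tup1K270R, Cyc8-4KtoR and double mutant below. All 4 strains, wild type included, were of the BY4741 background (met15Δ, his3Δ, ura3Δ, leu2Δ), carried His- and FLAG-tagged SUMO marked with HIS3MX6, and had the endogenous TUP1 and CYC8 replaced by a wild-type or mutant copy under its own promoter, marked with URA3 and LEU2. The labels give replicate cultures A and B for each group, which the study's methods describe as isolates of independent transformations. From raised expression at all times, the methods also infer a small aneuploid region (YDR211W to YDR261C) in replicate A of Tup1K270R.

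Every sample was hybridized with the unstressed wild-type culture of its own replicate set, and values are log2 ratios of sample over that reference. Of 23 arrays, 22 fall into 11 groups of 2 and the other compared the references with each other (wt x wt). The unstressed wild type is thus the reference itself and has no group of its own, so tests against 0 leave out its spread. On the 22 grouped arrays all replicate A samples were labelled with Cy3 and all replicate B samples with Cy5, so dye and replicate set cannot be told apart. On the wt x wt array the replicate B culture was in Cy3. Spots well above background made up 95% to 98.5% of each array, and precision is set by having 2 arrays in each group. On the array the brightest of the 9 probes were FET3 and FTR1 (median Cy3 signals 13339 and 16049), the dimmest was FIT2 (154), and none of them was saturated. Known osmotic stress genes rose in wild type at 30 min, with GPD1 at 4.40 and STL1 at 5.57. As probe sequences were not used, the probes for TUP1 and CYC8 were not taken to tell the point mutants from wild type, and they check no label. Their readings did differ between the replicates. On the wt x wt array CYC8 read −1.27, replicate B over A. In unstressed Tup1K270R CYC8 read −2.20 and 1.49 in replicates A and B (−1.17 and 1.33 before detrending), and in unstressed Cyc8-4KtoR TUP1 read −1.11 and 1.05 (−0.09 and 1.05 before detrending). Each of these values had Cy5 above Cy3, so a dye effect of the probes and a difference between isolates cannot be told apart. Mating type was not checked, since ratios to wild type give no absolute level. The labels conflict on 3 double mutant arrays of replicate B: source names exchange the 30 and 60 min samples and turn the dyes of the 0 min sample. The titles were followed, and double mutant values under the other readings are given with the limits.

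The deposited ratios had a fault that touched these genes. Feature Extraction, the scanner software, had applied a multiplicative detrending to the Cy3 channel alone on 10 arrays, both wild-type 30 min arrays among them, to both channels on 2, and to neither on 11. The ARN1 spots of the wild-type 30 min array of replicate A then read −1.40 and 0.30, where the signals before detrending gave −0.79 and −0.74. Over 207 pairs of spots (9 genes on 23 arrays) the median gap was 0.12 in the deposited ratios and 0.05 before detrending, and it passed 1 in 38 pairs and in 0. Each result is therefore given from the deposited ratios and, where the value or call differs, from the background-subtracted signals with loess, called "before detrending". Calls are adjusted p-values under 0.05 from limma over all 6201 probes (6131 before detrending), and 0.65 log2 units on the mean of both replicates is the cutoff of the study's methods.

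**Figure D1:**
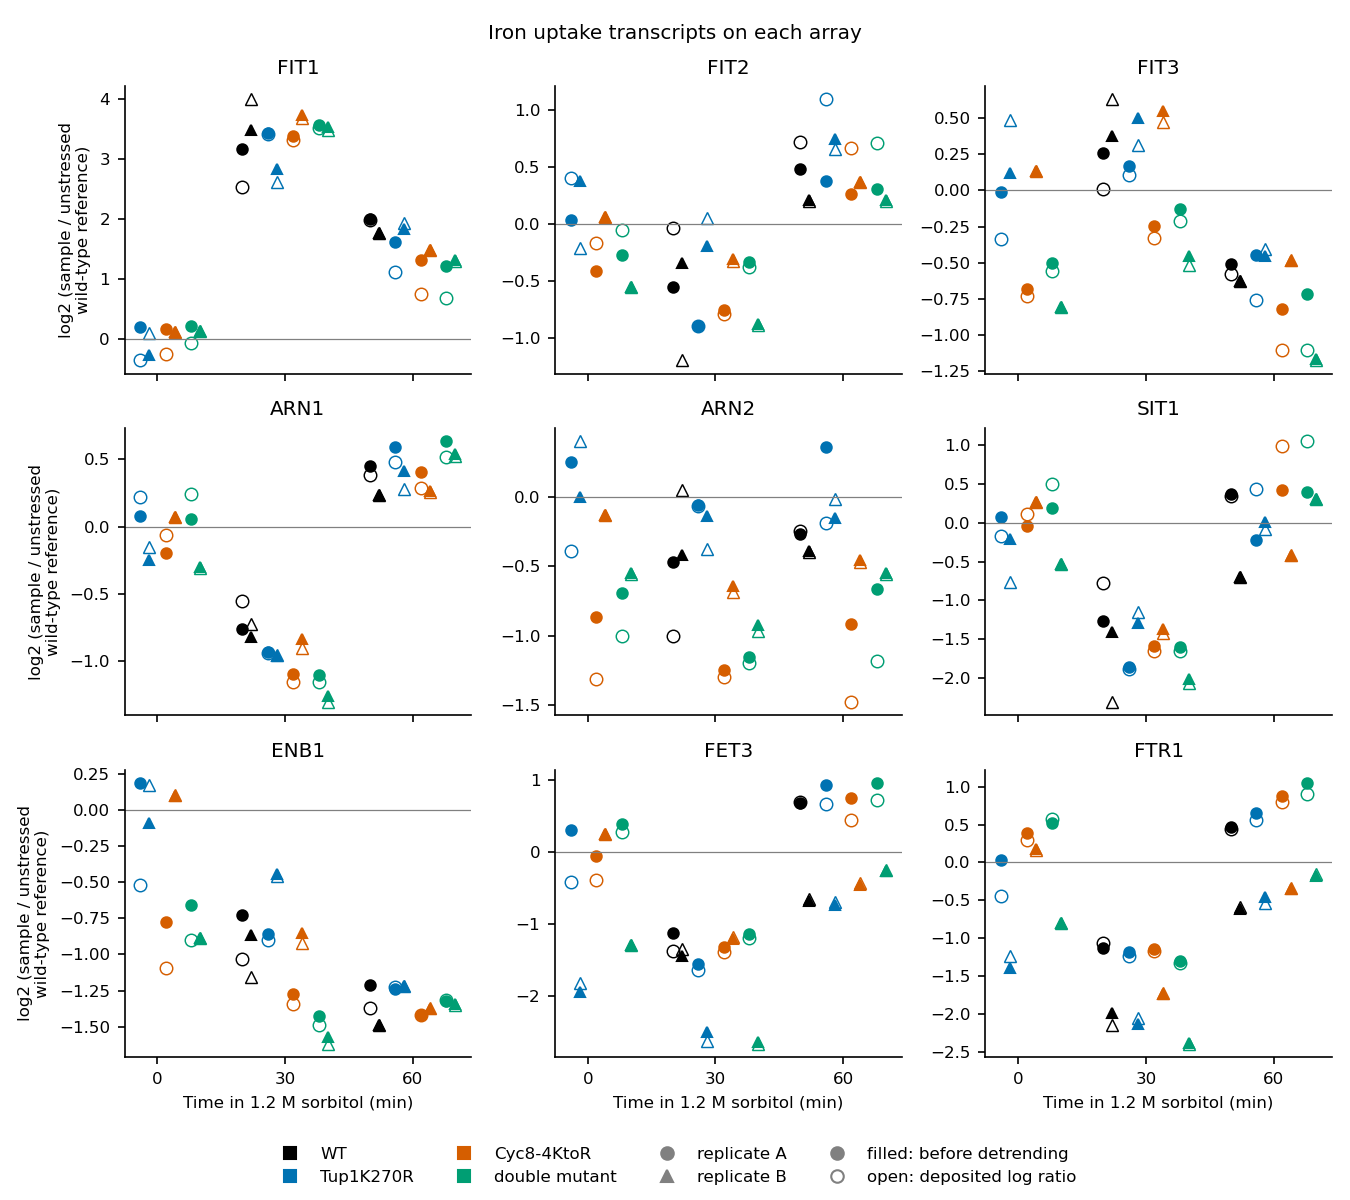
Log2 ratio over unstressed wild type of the same replicate set (vertical axis) for the 9 genes in each strain and time, by time in sorbitol (horizontal axis, min), with circles for replicate A, triangles for replicate B, open symbols for deposited ratios and filled symbols for values before detrending. In deposited ratios FIT1 lies between 2.53 and 3.99 on all 8 arrays at 30 min, while SIT1, FET3 and FTR1 lie below 0 there and spread around it at 60 min.

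Sorbitol divided the 9 genes in wild type. At 30 min FIT1 rose 9.59-fold, while ARN1, SIT1, ENB1, FET3 and FTR1 fell between 1.56- and 3.04-fold. At 60 min FIT1 was still 3.66-fold above unstressed cells, ENB1 was 2.69-fold below them, and neither SIT1, FET3 nor FTR1 passed the test. At 30 min 1 of the 9 genes was called higher, against 18.0% of all probes, and 5 were called lower, against 19.4%. At 60 min 1 was called in each direction, against 7.10% higher and 5.39% lower. Before detrending the calls at 30 min were 1 higher and 6 lower, against 34.7% and 32.7% of probes. Those at 60 min were 2 higher and 2 lower, against 24.1% and 22.2%. The median over the 9 genes was −0.64 at 30 min and −0.07 at 60 min, beside −0.06 and −0.01 over all probes. As RNA was extracted from whole cultures, a change in every cell and a change in part of the cells cannot be told apart.

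Of the mannoproteins, FIT1 stood apart from its relatives. At 30 min FIT1 read 2.53 (replicate A) and 3.99 (replicate B), a mean of 3.26 ± 1.03 (SD, n = 2; adjusted p = 2.30e-06). Before detrending the replicates lay closer, at 3.17 and 3.48 (adjusted p = 1.64e-10). At 60 min FIT1 read 1.99 and 1.76, a mean of 1.87 ± 0.16 (SD, n = 2; adjusted p = 0.000835). Both replicates were thus above unstressed cells at both times.

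FIT2 and FIT3 lie next to each other in the genome, and neither was called from the deposited ratios. FIT2 read −0.03 and −1.19 at 30 min (mean −0.61, adjusted p = 0.114), and −0.54 and −0.33 before detrending, where it was called lower (mean −0.44, adjusted p = 0.0412). At 60 min its mean was 0.47, and it was not called (adjusted p = 0.367). FIT3 read 0.01 and 0.63 at 30 min (adjusted p = 0.356) and −0.58 and −0.63 at 60 min (adjusted p = 0.154). Before detrending FIT3 was called lower at 60 min (mean −0.57, adjusted p = 0.0263). FIT1 and FIT2 are the dim probes of this group, with median Cy3 signals of 276 and 154, against 1709 for FIT3.

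FIT1 lies between HSP31 and STL1 in the genome's order of genes. HSP31, a stress-induced glyoxalase and chaperone, rose by 1.64 at 30 min (adjusted p = 8.69e-05) and by 1.5 at 60 min (adjusted p = 0.000534). STL1, the glycerol importer of the plasma membrane, rose by 5.57 and 5.35. FIT1, HSP31 and STL1 were therefore all higher at both times. FRE3 and FRE5, reductase genes that flank FIT2 and FIT3, read 0.30 and −0.99 at 30 min (adjusted p = 0.452 and 0.0742).

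The siderophore transporters differed among themselves in time course. ARN1, which carries ferrichrome-type siderophores, read −0.55 and −0.73 at 30 min (mean −0.64 ± 0.12, SD, n = 2; adjusted p = 0.00282). At 60 min it read 0.38 and 0.23, with a mean of 0.31 that was not called (adjusted p = 0.203). Before detrending the mean of 0.35 was called higher (adjusted p = 0.0158). ARN1 was thus below unstressed cells on both arrays at 30 min and above them on both at 60 min.

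SIT1, the transporter for ferrioxamine B, fell at 30 min, with values of −0.78 and −2.32 (mean −1.55 ± 1.08, SD, n = 2; adjusted p = 0.00714). Before detrending the arrays read −1.27 and −1.41 (adjusted p = 0.000219). At 60 min replicate A read 0.35 and replicate B −0.70, on opposite sides of 0 (adjusted p = 0.868).

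ENB1, which carries enterobactin, was the transporter called lower at both times. It read −1.03 and −1.16 at 30 min (mean −1.09 ± 0.09, SD, n = 2; adjusted p = 0.00156) and −1.37 and −1.49 at 60 min (mean −1.43 ± 0.09, SD, n = 2; adjusted p = 0.000561). Before detrending the means were −0.80 and −1.35. ARN2, a transporter of the triacetylfusarinine C type of siderophore, read −1.0 and 0.05 at 30 min (adjusted p = 0.268). Before detrending its arrays read −0.47 and −0.42, and the mean of −0.44 was called lower (adjusted p = 0.0343). At 60 min ARN2 had a mean of −0.32 (adjusted p = 0.623).

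The oxidase and permease of the reductive route were both called lower at 30 min. FTR1 fell to −1.06 and −2.14 at 30 min (mean −1.60 ± 0.76, SD, n = 2; adjusted p = 0.0107). FET3 read −1.38 and −1.34 (mean −1.36 ± 0.02, SD, n = 2; adjusted p = 0.0436). Before detrending FET3 read −1.13 and −1.44, and its call was lost (adjusted p = 0.0657), while with the replicate set as a block the adjusted p was 0.00428. At 60 min the arrays of replicates A and B gave 0.69 and −0.65 for FET3, and 0.45 and −0.59 for FTR1. The means of 0.02 and −0.07 thus cover replicates of opposite sign (adjusted p = 0.994 and 0.957).

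That split between replicates went with a difference between the references as read on the wt x wt array. There FET3 read 2.97-fold higher in the unstressed wild type of replicate B than of replicate A (log2 1.57, the 5th highest of 6201 probes). FTR1 read 2.10-fold higher (log2 1.07, the 13th highest). The other 7 genes lay between −0.19 and 0.20, and the SD over all probes was 0.22. Of the 9 genes, 2 passed the cutoff upward, against 0.597% of all probes. Some genes of copper handling, picked here with their values in view, were at the ends of the same array. CUP1-1 and CUP1-2, the copper-binding metallothioneins, were the highest at 3.76 and 3.73. CTR1, the high-affinity copper importer, was the lowest at −2.16, and FRE1, a reductase of both metals, read −1.58. CCC2 and ATX1, which pass copper on inside the cell, read 0.10 and 0.29. Only 1 array made this comparison, so it has no replicate check and no dye swap. On it FET3 and FTR1 were higher in Cy3, as they were in both wild-type replicates at 60 min. At 30 min the wild-type sample was the lower one both in Cy3 (replicate A) and in Cy5 (replicate B). FET3 read −1.38 and −1.34 there, and FTR1 −1.06 and −2.14. In unstressed Cyc8-4KtoR, before detrending, FET3 read −0.05 and 0.25 and FTR1 0.39 and 0.17 in replicates A and B. The wt x wt array alone cannot tell a dye effect of the probes from a difference between the cultures. Neither was tested. The part of the copper genes in the FET3 and FTR1 values was not tested.

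**Figure D2:**
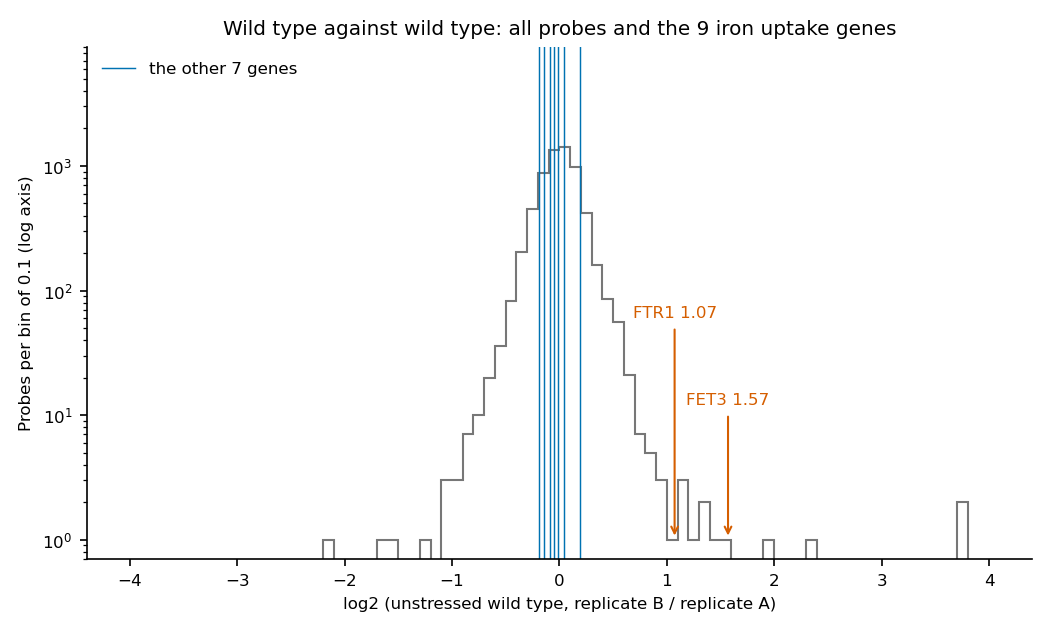
Distribution of log2 ratios of unstressed wild type of replicate B over replicate A (horizontal axis) across 6201 probes (vertical axis, number of probes, log scale), in bins of 0.1, with FET3 and FTR1 marked by arrows and the other 7 genes by lines. FET3 (1.57) and FTR1 (1.07) lie far to the right of the other 7 genes, which fall between −0.19 and 0.20.

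Every array was then set on the scale of the replicate A reference, by adding the wt x wt ratio to the replicate B arrays. The 60 min values of FET3 and FTR1 came together, while the FET3 values at 30 min spread more widely. Before detrending, FET3 then lay between 0.69 and 1.31 on all 8 arrays at 60 min, and FTR1 between 0.46 and 1.05. SIT1 did not come together at 60 min, with −0.84 to 0.42 on this scale, against −0.70 to 0.42 over each set's own reference. At 30 min FET3 ranged from −1.56 to 0.37 on this scale, against −2.65 to −1.13 over each set's own reference, and FTR1 from −1.31 to −0.66, against −2.38 to −1.13. At 0 min FET3 in replicate A was 0.31 in Tup1K270R, −0.05 in Cyc8-4KtoR and 0.39 in the double mutant. In replicate B it was 1.57 in wild type, −0.38 in Tup1K270R, 1.83 in Cyc8-4KtoR and 0.28 in the double mutant. On this scale wild type and Cyc8-4KtoR of replicate B were thus the high samples at 0 min, and FTR1 had the same pair at the top, at 1.08 and 1.25. The scale was chosen after seeing the data, takes in any dye effect on the wt x wt array and carries no test.

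**Figure D3:**
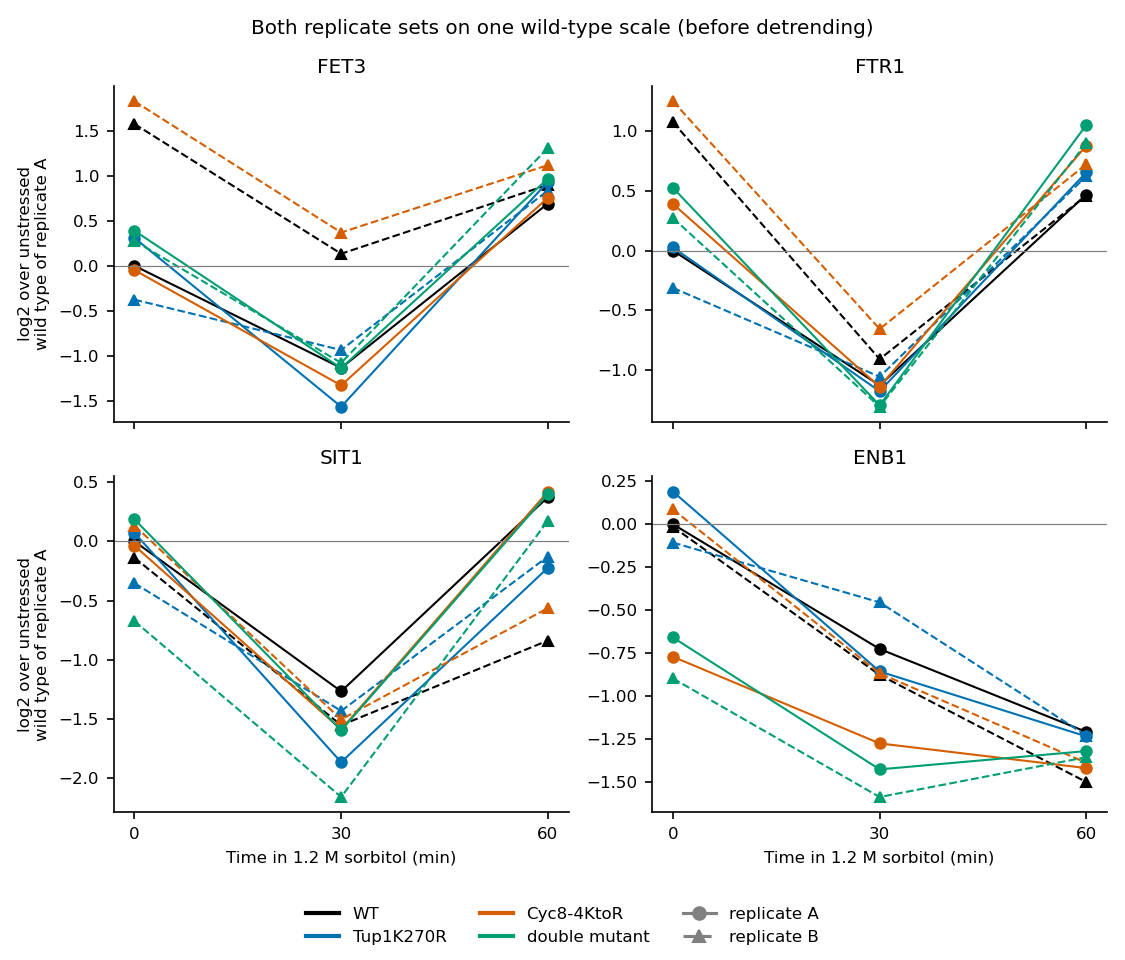
Log2 level relative to the unstressed wild type of replicate A (vertical axis) against time in sorbitol (horizontal axis, min) for FET3, FTR1, SIT1 and ENB1, from signals before detrending, with a line for each strain and replicate. FET3 spreads from −0.38 to 1.83 at 0 min and from 0.69 to 1.31 at 60 min.

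Compared with their own 0 min samples, the mutants too showed FIT1 up and ARN1 down at 30 min. FIT1 rose by 3.13 in Tup1K270R (adjusted p = 0.000187), 3.56 in Cyc8-4KtoR (adjusted p = 5.98e-05) and 3.46 in the double mutant (adjusted p = 6.61e-05). ARN1 fell by 0.98, 1.03 and 1.19 in the same order (adjusted p = 0.00299, 0.00210 and 0.000661). Of the 9 genes, 1 was called higher in each mutant, against 12.5%, 12.4% and 12.7% of all probes. In Tup1K270R 1 was called lower (10.3% of all probes), in Cyc8-4KtoR 2 (10.3%) and in the double mutant 2 (11.8%).

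SIT1 fell by 1.73 in Cyc8-4KtoR (adjusted p = 0.0392) and by 1.84 in the double mutant (adjusted p = 0.0268). In Tup1K270R its difference was −1.06 (adjusted p = 0.207), and −1.51 before detrending, where it was called (adjusted p = 0.00199). ENB1 differed by −0.51, −0.64 and −0.66 in Tup1K270R, Cyc8-4KtoR and the double mutant, without a call. Before detrending it was called in all 3, at −0.70, −0.73 and −0.73 (adjusted p = 0.0187, 0.0143 and 0.0140). FIT2 was called lower before detrending in Tup1K270R (−0.75, adjusted p = 0.0206).

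FTR1 differed by −0.81, −1.67 and −1.74 in the same order (adjusted p = 0.399, 0.0682 and 0.0553). With the replicate set as a block, these adjusted p-values were 0.0178, 0.000121 and 7.54e-05. Before detrending FTR1 was called without the block in Cyc8-4KtoR (adjusted p = 0.0406) and the double mutant (adjusted p = 0.0416). FET3 differed by −1.02, −1.22 and −1.43, and the block brought a call in the double mutant (adjusted p = 0.0313). Before detrending the block also brought one in Cyc8-4KtoR (−1.37, adjusted p = 0.0249) and Tup1K270R (−1.22, adjusted p = 0.0427).

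Across strains at 30 min, the 8 arrays before detrending put FIT1 between 2.83 and 3.72 (median 3.45) and ARN1 between −1.26 and −0.76 (median −0.95). SIT1 lay between −2.02 and −1.27 and FTR1 between −2.38 and −1.13. ENB1 ranged from −1.57 to −0.44, FET3 from −2.65 to −1.13, FIT2 from −0.89 to −0.19 and ARN2 from −1.25 to −0.06. FIT1 was thus above 0 on all 8 arrays and these 7 genes were below 0 on all 8. FIT3 was the exception, with values from −0.45 to 0.55 and 5 of 8 arrays above 0.

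From 30 to 60 min the called genes moved back toward, or past, the unstressed level. ARN1 rose in all 4 strains. In wild type it rose by 0.95 (adjusted p = 0.00657), the 1 gene of the 9 called higher, against 7.42% of all probes, and 0 of the 9 were called lower, against 6.11%. The mutants gave 2 higher (8.42% of all probes) and 1 lower (7.97%) in Tup1K270R, 2 (8.98%) and 1 (9.42%) in Cyc8-4KtoR, and 4 (9.61%) and 1 (9.82%) in the double mutant. Whether the change from 30 to 60 min differed between strains was not tested.

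ARN1 rose by 1.33 in Tup1K270R, 1.30 in Cyc8-4KtoR and 1.75 in the double mutant (adjusted p = 0.000593, 0.000562 and 7.27e-05). FIT1 fell by 1.48, 2.38 and 2.51 in the same order (adjusted p = 0.0327, 0.00176 and 0.00115). In wild type FIT1 differed by −1.39 and missed the call (adjusted p = 0.05003). It was called with the replicate block (adjusted p = 0.0162) and before detrending (−1.44, adjusted p = 3.81e-05).

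SIT1 rose by 1.82 in Cyc8-4KtoR (adjusted p = 0.0360) and by 2.54 in the double mutant (adjusted p = 0.00555). It differed by 1.37 in wild type and 1.70 in Tup1K270R, where the block brought the call (adjusted p = 0.0378 and 0.0117), as did the signals before detrending (adjusted p = 0.0113 and 0.00257).

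FET3 and FTR1 rose by 2.18 and 2.23 in the double mutant (adjusted p = 0.0418 and 0.0209). In Tup1K270R they differed by 2.12 and 1.65 (adjusted p = 0.0531 and 0.0889), and before detrending both were called (adjusted p = 0.0442 and 0.0411). In wild type they differed by 1.38 and 1.53, with a call under the block (adjusted p = 0.0499 and 0.000518) and none without it before detrending (adjusted p = 0.215 and 0.0819). In Cyc8-4KtoR FTR1 differed by 1.67 (adjusted p = 0.0780; 0.000170 with the block) and FET3 by 1.30 (adjusted p = 0.230).

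FIT2 and FIT3 moved apart over this interval. FIT2 rose by 1.29 in Tup1K270R (adjusted p = 0.0430) and differed by 1.08, 1.07 and 1.08 in wild type, Cyc8-4KtoR and the double mutant. Before detrending FIT2 was called higher in all 4 strains (0.79, 1.1, 0.85 and 0.86 in the order wild type, Tup1K270R, Cyc8-4KtoR and double mutant; highest adjusted p = 0.0180). FIT3 was called lower before detrending in wild type (−0.88), Tup1K270R (−0.78) and Cyc8-4KtoR (−0.81), but not in the double mutant (−0.65, adjusted p = 0.0562). No deposited value of FIT3 was called without the block.

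ENB1 and ARN2 gave no call from the deposited ratios. ENB1 differed by −0.34 in wild type and 0.22 in the double mutant, and ARN2 by 0.16 and 0.21. On all 8 arrays at 60 min ENB1 lay between −1.49 and −1.21 before detrending, the narrowest of the 9 ranges at that time. FIT1 lay between 1.22 and 1.99 there, and FET3 between −0.74 and 0.97.

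At 60 min against their own 0 min samples, FIT1 rose by 1.65 in Tup1K270R (adjusted p = 0.0302), the 1 gene of the 9 called higher there, against 4.93% of all probes. It differed by 1.18 in Cyc8-4KtoR (adjusted p = 0.213) and by 0.96 in the double mutant (adjusted p = 0.374). Before detrending these were 1.25 and 1.09 and were called (adjusted p = 0.000399 and 0.00114). ENB1 in Tup1K270R differed by −1.05 and was called with the block (adjusted p = 0.0209) and before detrending (−1.27, adjusted p = 0.00106). ENB1 was called before detrending in Cyc8-4KtoR as well (−1.06, adjusted p = 0.00442). In the double mutant, where ENB1 was already low at 0 min, it gave no call. ARN1 was called higher before detrending in Tup1K270R (0.59, adjusted p = 0.0100) and the double mutant (0.71, adjusted p = 0.00359). FTR1 in Tup1K270R differed by 0.84 and was called with the block (adjusted p = 0.0256).

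No mutant differed from wild type at any time in a way that limma called from the deposited ratios, for any of the 9 genes. Over all 6201 probes the count of calls was also 0 in each of the 9 mutant-against-wild-type comparisons, while 11 to 318 probes were higher and 11 to 245 lower at an unadjusted p under 0.05. The fits before detrending called 0 to 93 probes in these comparisons, the replicate block 0 to 41, and normexp with loess 0 to 4. The comparisons share their control arrays or reference cultures, so likeness between mutants is not independent. The values that follow are therefore sizes with their replicates, read against the methods' cutoff.

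**Figure D4:**
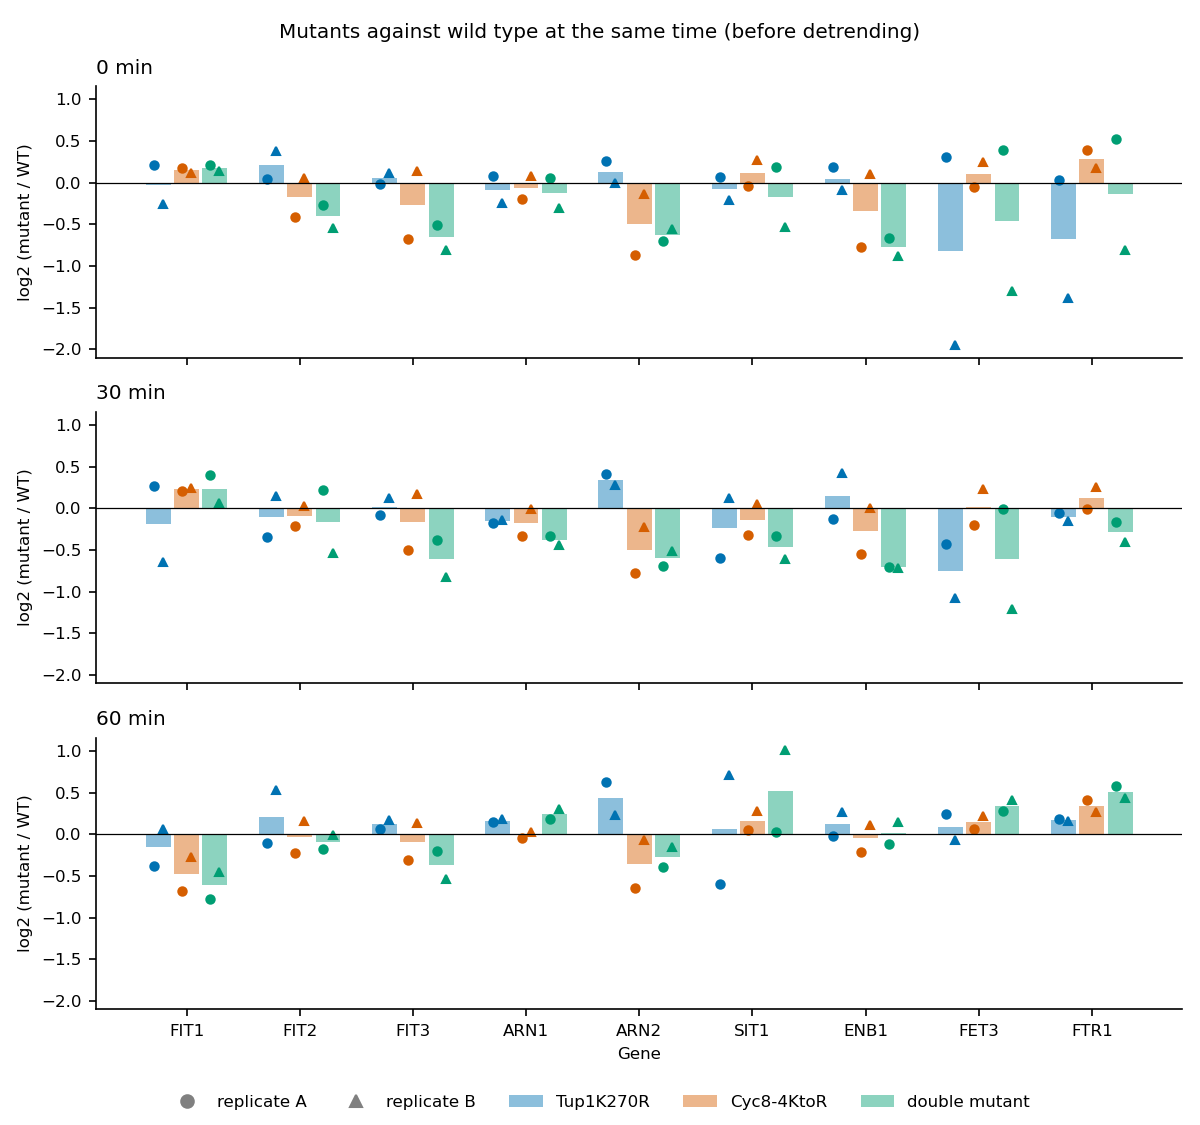
Log2 difference of each mutant from wild type at the same time (vertical axis) for the 9 genes, from signals before detrending, with bars for the mean of 2 replicates and points for the replicates. In the double mutant at 0 min the points of FIT3, ARN2 and ENB1 lie together below 0, while those of FET3 and FTR1 lie on opposite sides of it.

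In unstressed double mutant cells, transcripts of FIT3, ARN2 and ENB1 were lower on both arrays. ENB1 read −0.90 and −0.88 (mean −0.89 ± 0.01, SD, n = 2; 95% interval −1.37 to −0.41; adjusted p = 0.292). Before detrending it read −0.66 and −0.88, and the mean of −0.77 was called lower (adjusted p = 0.0266), 1 of the 9 genes against 0.326% of all probes. ARN2 read −1.0 and −0.56 (mean −0.78) and FIT3 −0.56 and −0.81 (mean −0.68). Before detrending their means were −0.62 and −0.65, and both were called with the replicate block (adjusted p = 0.0353 and 0.0464) but not without it (adjusted p = 0.0900 and 0.115). These 3 genes were those past the cutoff downward, against 0.919% of all probes. With the replicate B array turned, as its source names read, the means would be −0.01 for ENB1, −0.22 for ARN2 and 0.12 for FIT3, so the difference in all 3 genes rests on the title of that array. The ENB1 call before detrending was not recomputed for that reading. CYC8 read 1.44 on that array as its title has it, beside 1.1 and 1.06 at 30 and 60 min. Every CYC8 value given here had Cy5 above Cy3, on the wt x wt array too. The CYC8 value thus cannot tell the title from the source names.

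In unstressed Cyc8-4KtoR cells the same genes were low in replicate A alone. ARN2 read −1.31 and −0.13 (mean −0.72), the 1 gene of the 9 past the cutoff downward, against 0.645% of all probes. Before detrending its mean was −0.50, short of the cutoff. ENB1 read −1.09 and 0.10, and FIT3 −0.73 and 0.14, so both spanned 0. None was called (ARN2 adjusted p = 0.958).

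In unstressed Tup1K270R cells FET3 and FTR1 passed the cutoff downward, 2 of the 9 against 0.468% of all probes. FET3 read −0.42 and −1.82 (mean −1.12 ± 0.99, SD, n = 2; adjusted p = 0.531) and FTR1 −0.44 and −1.23 (mean −0.83 ± 0.56, SD, n = 2; adjusted p = 0.610). Before detrending replicate A read 0.31 and 0.03, so the difference lay in replicate B, at −1.95 and −1.39. In the same replicate B sample CTR1 read 1.88 and FRE1 1.31 before detrending. The double mutant of replicate B had FET3 at −1.30, CTR1 at 1.04 and FRE1 at 0.64, and Cyc8-4KtoR of replicate B had CTR1 at −0.01 and FRE1 at 0.21. As given above, FET3, FTR1, CTR1 and FRE1 also read apart between the references on the wt x wt array, which had no dye swap. The part of the replicate B reference, or of the dyes, in these values was not tested. The CYC8 probe in these replicate B samples, all in Cy5, read 1.33 in Tup1K270R, 1.44 in the double mutant and 0.94 in Cyc8-4KtoR before detrending. Its part was not tested either.

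In the deposited ratios at 30 min 1 of the 9 genes passed the cutoff in Tup1K270R and 1 in the double mutant, both downward, and 0 did so in Cyc8-4KtoR. In Tup1K270R FET3 alone passed the cutoff downward (−0.27 and −1.28, mean −0.78; 0.484% of all probes). In the double mutant FIT3 did so (−0.22 and −1.14, mean −0.68; 0.677% of all probes). Before detrending FIT3 read −0.13 and −0.45 there and 0.26 and 0.38 in wild type, a mean difference short of the cutoff. ENB1 in the double mutant differed by −0.46 in both replicates. Before detrending it differed by −0.70 and −0.71 (adjusted p = 0.640), the lowest mean of the 9 genes there and past the cutoff. In Cyc8-4KtoR the largest difference was that of ARN2, at −0.52.

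At 60 min FIT1 was lower than wild type in strains with mutant Cyc8, but not beyond the test. It differed by −1.23 and −0.28 in Cyc8-4KtoR (mean −0.76) and by −1.30 and −0.45 in the double mutant (mean −0.88 ± 0.60, SD, n = 2; adjusted p = 0.998). Before detrending these means were −0.48 and −0.61 (adjusted p = 0.306 for the double mutant), short of the cutoff. FIT1 and ARN2 were the 2 genes past the cutoff downward in Cyc8-4KtoR, against 0.951% of all probes. ARN2 read −1.23 and −0.07 there (mean −0.65), and −0.65 and −0.07 before detrending (mean −0.36), so its difference lay in replicate A. FIT1 was the 1 gene past it downward in the double mutant, against 1.69%. SIT1 was the 1 gene past it upward in the double mutant (0.71 and 1.01, mean 0.86; 2.56% of all probes), but replicate A fell to 0.03 before detrending. In Tup1K270R all 9 genes lay within 0.41 of wild type at 60 min.

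Between mutants ARN2 was higher in Tup1K270R than in Cyc8-4KtoR on both replicates at each time, without a call. The means were 0.73, 0.78 and 0.87 at 0, 30 and 60 min. Replicate A gave 0.92, 1.24 and 1.29 and replicate B 0.54, 0.31 and 0.45, so the difference was larger in replicate A at each time. Before detrending the means were 0.62, 0.85 and 0.79. At 0 min ARN2 then read 0.25 in Tup1K270R and −0.87 in Cyc8-4KtoR in replicate A, and −0.004 and −0.13 in replicate B. Before detrending the unstressed difference thus lay mostly in replicate A. At 30 min and before detrending, Tup1K270R exceeded the double mutant by 0.94 for ARN2 and 0.85 for ENB1. FTR1 was lower in Tup1K270R than in Cyc8-4KtoR at 0 min by 0.96 before detrending, with a call under the block alone (adjusted p = 0.0455). The ARN2 and ENB1 differences at 30 min were called with the replicate block (adjusted p = 0.0352 and 0.0484) and not without it (adjusted p = 0.0863 and 0.0938).

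The wider set of iron genes held 30 genes in 7 roles, whose counts of calls in wild type stand beside the share of all probes. At 30 min 4 of the 30 were called higher, against 18.0% of all probes, and 5 lower, against 19.4%. At 60 min 2 were called higher, against 7.10%, and 3 lower, against 5.39%. Before detrending the counts were 7 and 8 at 30 min, against 34.7% and 32.7%, and 6 and 6 at 60 min, against 24.1% and 22.2%. The genes that follow are thus named for their own values. HMX1, a heme oxygenase that frees iron from heme, rose by 1.77 at 30 min (adjusted p = 0.000127). ISU1, a scaffold for iron-sulfur clusters in mitochondria, rose by 1.26 (adjusted p = 0.000161).

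TIS11 and CTH1 encode related proteins that bind mRNAs of iron-using pathways, and they moved apart at 30 min. TIS11 (also called CTH2) fell by 1.30 (adjusted p = 0.000982), while CTH1 rose by 1.07 (adjusted p = 2.83e-05). At 60 min TIS11 was lower by 1.64 (adjusted p = 0.000462). FET4, the low-affinity iron transporter, fell by 1.77 at 60 min (adjusted p = 0.0142), and SMF1, a manganese and metal transporter, rose by 0.81 (adjusted p = 0.00145). ISU2, the partner of ISU1, rose by 1.47 at 60 min (adjusted p = 0.00260).

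Among regulators AFT1 was the 1 of 7 called at 30 min, lower by 0.44 (adjusted p = 0.0153), and the other 6 lay between −0.28 and 0.20. Of the 6 ferric reductase genes FRE4 was called higher (1.06, adjusted p = 0.0233) and FRE6, a vacuolar reductase, lower (−0.75, adjusted p = 0.000668). CCC2, the copper pump that loads Fet3, fell by 0.57 (adjusted p = 0.0137). FTH1, the vacuolar relative of FTR1, fell by 0.87 (adjusted p = 0.0286). CTR1 differed by −1.73 and −1.12 at 30 and 60 min (adjusted p = 0.106 and 0.449).

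**Figure D5:**
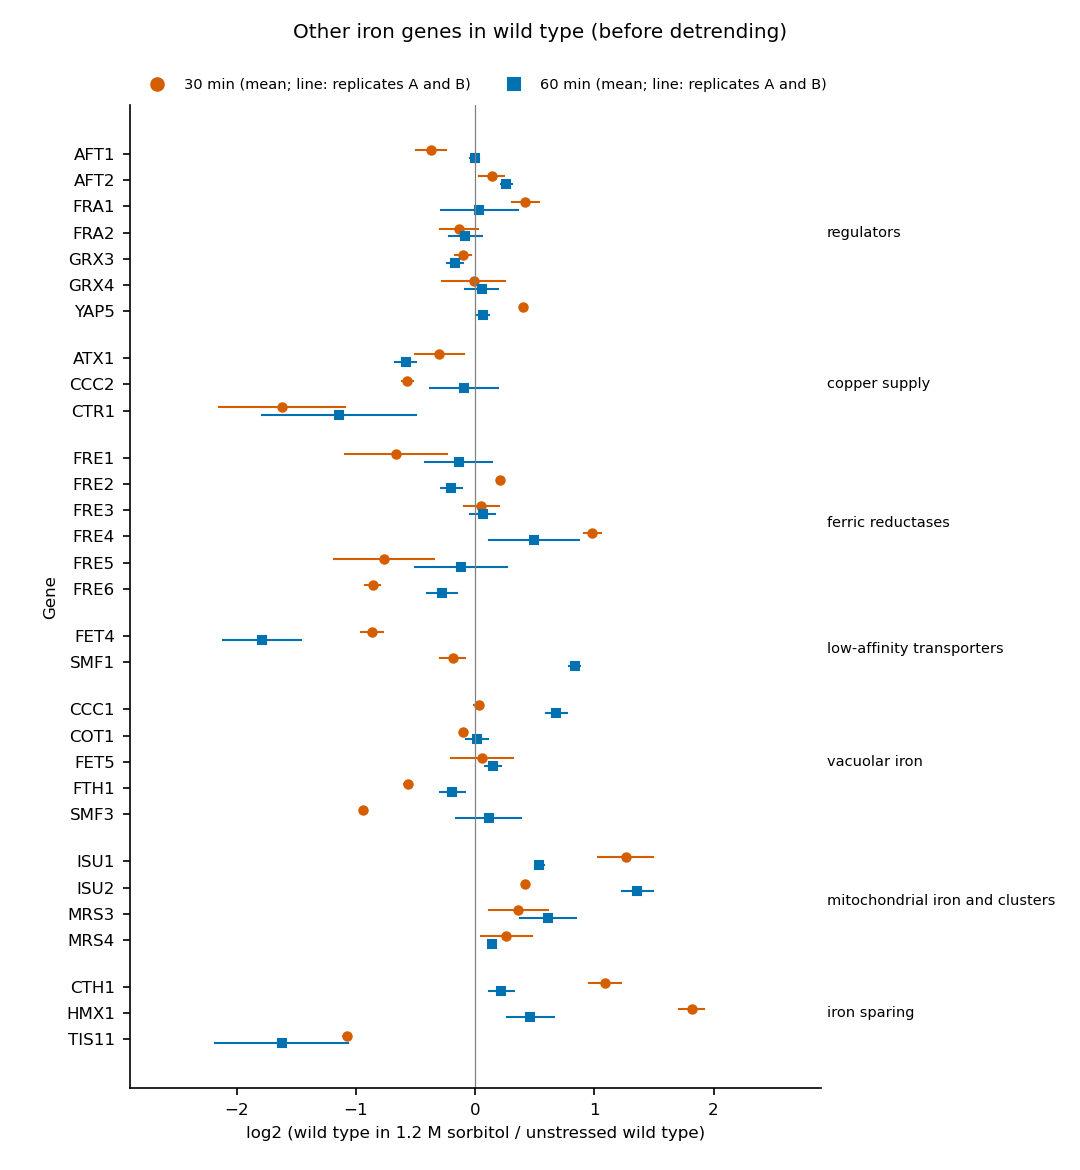
Log2 ratio of wild type in sorbitol over unstressed wild type (horizontal axis) at 30 and 60 min for the 30 other iron genes by role, from signals before detrending, with symbols for the mean of 2 replicates and lines from replicate A to B. At 30 min HMX1 (1.82) is the highest and CTR1 (−1.62) the lowest, and at 60 min FET4 (−1.79) is the lowest.

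None of the 30 genes was called between a mutant and wild type in the deposited ratios. The genes past the cutoff with both replicates on 1 side are given by size alone. In Tup1K270R at 0 min these were 2 of the 30 upward, against 1.77% of all probes. They were FRE1 (0.77, and 0.74 before detrending) and the mitochondrial iron carrier gene MRS3 (0.69, but 0.15 before detrending). FRE5 differed by 1.11 in Cyc8-4KtoR at 30 min (0.77 before detrending; 1 of 30 upward, against 2.16%) and by −1.08 in the double mutant at 60 min (−1.26 before detrending; 1 of 30 downward, against 1.69%). FRE4 differed by −0.78 in the double mutant at 30 min (−0.69 before detrending; 1 of 30 downward, against 0.677%). At 60 min it differed there by 0.67 (0.50 before detrending, short of the cutoff; 1 of 30 upward, against 2.56%). Both reductase genes thus changed sign between comparisons.

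Over the 22 arrays the 9 genes did not follow a single course. FET3 and FTR1 were closely alike (Pearson r = 0.936), as were SIT1 and FTR1 (r = 0.935) and ARN1 and SIT1 (r = 0.893), whereas FIT1 ran opposite to SIT1 (r = −0.788). Against the mean of all 9, which includes the gene itself and so raises r, r was 0.880 for FET3, 0.846 for ARN1, 0.837 for FIT2, 0.812 for FTR1 and 0.808 for SIT1. It was 0.213 for ARN2, 0.083 for ENB1, −0.318 for FIT3 and −0.473 for FIT1. The genes outside the list whose deposited values were most like that mean were ZRT1 (r = 0.863), FUI1 (0.798), PUL4 (0.796), TDA5 (0.795) and IBD2 (0.783). Before detrending their r was 0.813, 0.838, 0.841, 0.692 and 0.746 in the same order. FUI1 also read 1.21 on the wt x wt array, and the part of that reading in its r was not tested. ZRT1 is the high-affinity zinc transporter, FUI1 the uridine permease and PUL4 a gene of the pulcherrimin cluster. These correlations are descriptions without a test, because the arrays share references, times and dyes.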

How the data were processed

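The authors scanned two-color Agilent 8x15K arrays and extracted them with Feature Extraction 10.5.1.1. Their deposited log10 ratios (Cy5 over Cy3) came after subtraction of background, dye normalization and, on some channels, detrending. The deposited series matrix holds log2 ratios of the same arrays, with 0 columns unused. The deposited background-subtracted intensity of each channel gave the values before detrending. The build behind the probe design differs from the assembly at hand (used for gene names and order), so no coordinates are given.

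Log10 ratios were turned to log2 of sample over reference, and each probe's 2 spots were averaged without control and outlier spots. Probes from YDR211W to YDR261C (51), the region the study's methods exclude as aneuploid in replicate A of Tup1K270R, were left out. That left 6201 probes with a value on all arrays. Groups were fitted together over 22 arrays in limma 3.58.1 (R 4.3.3, version 1.17.8 of data.table, jsonlite 2.0.0) with lmFit, eBayes and Benjamini-Hochberg adjustment over all probes, for 30 comparisons. The fit was tested on simulated data. Figures used Python 3.11.15, numpy 2.4.6, pandas 2.3.3 and matplotlib 3.10.9.

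The replicate letters pair the samples, since samples of 1 letter were read against 1 wild-type culture. Deviations from the group means of same-lettered samples correlated between −0.0797 and 0.838 over 55 pairs of groups, and over 0.1 in 52. All 9 uptake genes are named. Of the 30 other iron genes, those named are the 5 largest per comparison past 0.65 on the log2 scale with replicates on 1 side; AFT1, FRE3, FRE4, FRE5, FRE6, CCC2 and FTH1 in wild type, CTR1 and FRE1 on the replicate B arrays, TUP1, CYC8, STE2, CTT1, and neighbors and genes of the wt x wt array, were picked with their values in view. The genes and lists were chosen with earlier results of these data known. A planned count of Aft1 motif letters in promoters was not run.

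Alternatives were the signals before detrending with loess, normexp (offset 50) with loess, removal of a loess surface (span 0.3), the series matrix, a filter on dim probes, the excluded region kept in, other cutoffs, each replicate left out, the slide as a random effect (correlation 0.153), a replicate block, and the other readings of the labels. The block together with the first pair of these, the scale of the replicate A reference, and Tup1K270R against the double mutant were chosen after seeing the data.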

Additional observations from a re-analysis of the deposited data

Results flagged for a closer look

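The change between 30 and 60 min of sorbitol was past the test's threshold in the deposited ratios for these genes and strains, that is, the response at 60 min differed from that at 30 min. ARN1 differed by 0.95 in wild type (adjusted p = 0.00657), 1.33 in Tup1K270R (adjusted p = 0.000593), 1.30 in Cyc8-4KtoR (adjusted p = 0.000562) and 1.75 in the double mutant (adjusted p = 7.27e-05). FIT1 differed by −1.48 in Tup1K270R (adjusted p = 0.0327), −2.38 in Cyc8-4KtoR (adjusted p = 0.00176) and −2.51 in the double mutant (adjusted p = 0.00115). SIT1 differed by 1.82 in Cyc8-4KtoR (adjusted p = 0.0360) and 2.54 in the double mutant (adjusted p = 0.00555). In the double mutant FET3 differed by 2.18 (adjusted p = 0.0418) and FTR1 by 2.23 (adjusted p = 0.0209). FIT2 differed by 1.29 in Tup1K270R (adjusted p = 0.0430). Before detrending, ARN1 gave 1.14, 1.45, 1.30 and 1.77 in the same order of strains. The double mutant values rest on the titles of its replicate B arrays.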

How the results depend on the processing

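With 2 arrays a group, a replicate left out gives a value and no test. The median over the 9 genes then ranged from −1.16 to −0.78 in wild type at 30 min and −0.59 to 0.38 at 60 min. At 0 min it ranged from −0.35 to −0.15 in Tup1K270R, −0.24 to 0.12 in Cyc8-4KtoR and −0.56 to −0.05 in the double mutant. Against wild type at 30 min the ranges were −0.23 to −0.16, −0.32 to 0.16 and −0.51 to −0.26 in the same order, and at 60 min 0.10 to 0.22, −0.10 to 0.14 and 0.03 to 0.14. A median of means need not lie between the medians of the replicates. The main value of −0.64 in wild type at 30 min lay outside its range. So did those of −0.12, −0.04 and 0.08 in Tup1K270R at 0, 30 and 60 min. On the signals before detrending the median was −0.10 in Tup1K270R at 30 min (main value −0.04) and 0.017 in the double mutant at 60 min (main value 0.09), the same with the replicate block. With normexp it was 0.031 in Tup1K270R at 0 min (main value −0.12) and −0.10 at 30 min, also the same with the block, and with a surface removed it was −0.085 at 30 min. With the 0 min double mutant array of replicate B turned, its median was 0.25, and FIT3 read 0.12, ARN2 −0.22 and ENB1 −0.01. With its 30 and 60 min arrays exchanged, the medians were 0.33 and −0.55, and at 60 min FIT1 read 0.21 and SIT1 −0.33. That exchange widens the shared spread, and in wild type the calls of ARN1, SIT1, FET3 and FTR1 at 30 min (adjusted p = 0.202, 0.0753, 0.125 and 0.0622) and of FIT1 at 60 min (adjusted p = 0.0604) were lost with unchanged values. By their titles these arrays read −0.99 and 0.92 for STE2, the pheromone receptor gene, at 30 and 60 min, beside −0.90 and 1.15 in replicate A, and 5.50 and 4.40 for CTT1, the cytosolic catalase gene, beside 5.12 and 3.81. FET3 at 30 min was also lost with normexp (adjusted p = 0.0654), and ENB1 in the double mutant at 0 min was called with a surface removed (adjusted p = 0.0285). The replicate block changed the calls named in the report and left every median over the 9 genes as it was (−0.64 in wild type at 30 min). Calls over all probes rose in every stress comparison. In wild type at 30 min they were 2319 from the deposited ratios, 3013 with the block, 4134 before detrending and 4052 with normexp, and at 60 min 774, 1286, 2841 and 2593. The 60 against 30 min comparison in wild type gave 839, 1467, 3011 and 2878 calls, and in Tup1K270R, Cyc8-4KtoR and the double mutant the deposited counts of 1016, 1141 and 1205 became 1656, 1822 and 1902 with the block and 3147, 3273 and 3271 before detrending. At 30 against 0 min the counts of 1415, 1410 and 1520 became 3437, 3515 and 3608 before detrending, and at 60 against 0 min those of 589, 223 and 215 became 1127, 415 and 422 with the block and 1667, 1417 and 1412 before detrending. The cause of these differences was not tested.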
